A study of Homo sapiens with 12 samples.

Results

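The MHC class II pathway was followed through 8 genes: CIITA, CD74, HLA-DRA, HLA-DRB1, HLA-DPA1, HLA-DPB1, HLA-DMA and HLA-DMB. They were picked by gene name from the 58735 genes of the deposited expression table, and each name had 1 gene identifier. The study sequenced poly(A) RNA of NCM460, a human colon epithelial cell line labelled as normal, in 12 libraries. There were 3 libraries in each of 4 groups: medium alone, TNF-α, TNF-α together with 5-OH-TMT (bufotenidine in the labels), and TNF-α given to cells with HTRA2 knockdown, while the cells of the other 3 groups were labelled WT. The doses, the treatment times, whether the TNF-α libraries had a control siRNA, and whether the knockdown libraries came from 1 siRNA or several were not given for these libraries in the sources used here. Nothing states that the 3 libraries of a group came from separate cultures, so the p-values measure only the spread between these libraries.

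MHC class II molecules are pairs of an α and a β chain that present peptides from internalised proteins to CD4+ T cells. Professional antigen-presenting cells make them constitutively, whereas epithelial cells make them mainly after inflammatory signals, above all interferon-γ, and class II on gut epithelium is well known from colitis. CIITA is the coactivator of the whole gene family: it binds no DNA itself and is held at the class II promoters by factors that sit on their X and Y boxes, RFX, CREB and NF-Y. CD74, the invariant chain, accompanies new class II molecules to the endosome, where HLA-DM, the pair of HLA-DMA and HLA-DMB, exchanges its remnant for antigenic peptide.

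The promoters below show letters that match the X and Y boxes, and binding of factors to them was not measured. They are printed for 5 of the class II genes with reads in the knockdown. Other class II genes with reads there are not printed. RefSeq windows of 300 bases (GRCh38.p14; 250 before and 50 after the annotated start) were in the reference table for 6 of the 8 genes, and CIITA and HLA-DRA had no entry. The windows were searched on both strands for an X core, GNNACNNATG, and for a Y core, ATTGG, which reads CCAAT on the other strand. Capitals mark the X core and then the Y core, without overlap, or the one shown where they do not pair, and all 5 genes lie on the minus strand.
HLA-DRB1 (chr6:32589878-32589938): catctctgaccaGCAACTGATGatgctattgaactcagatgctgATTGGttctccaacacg
HLA-DMA (chr6:32953160-32953221): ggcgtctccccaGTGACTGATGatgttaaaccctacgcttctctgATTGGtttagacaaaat
HLA-DQB1 (chr6:32666729-32666789): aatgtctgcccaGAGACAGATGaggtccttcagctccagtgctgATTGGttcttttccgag
HLA-DMB (chr6:32941059-32941127): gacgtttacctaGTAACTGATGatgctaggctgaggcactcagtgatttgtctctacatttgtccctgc
CD74 (chr5:150412947-150413015): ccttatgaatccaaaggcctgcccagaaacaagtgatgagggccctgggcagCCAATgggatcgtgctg

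HLA-DRB1 and HLA-DMA held both cores on the gene's own strand, with 22 and 23 bases between them. The X core began 78 bases before the annotated start of HLA-DRB1 and 112 bases before that of HLA-DMA. HLA-DQB1 and HLA-DRB5, class II β chains outside the 8 genes, had the same arrangement with 22 bases between the cores. Of these, HLA-DQB1 was called in the knockdown and HLA-DRB5 was not (limma adjusted p 0.265 in the fit without the filter on low values). HLA-DQA1, HLA-DQA2, HLA-DQB2, HLA-DOA and HLA-DOB, also outside the 8 genes, held a Y core but no X core. An X core with a Y core 14 to 30 bases further on was present in 45 of 35116 promoters, or 0.128%. Any X core was present in 7.26% and any Y core in 34.6%. HLA-DMB held an X core without a Y core at that distance, CD74 held the Y core in its reverse form only, and HLA-DPB1 held a Y core but no X core. HLA-DPA1 held neither in the 2 windows listed for it. These matches describe letters in a window and are not measured binding sites.

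CIITA, HLA-DMA and CD74 were the members with reads in every library, and no member was highly expressed in any group. The deposited unit was FPKM, which scales reads by gene length and library size, and whole reads were recovered from it. Libraries held 31008429 to 37624399 reads on genes, so that 3 reads, the floor used for folds, stood for 0.0804 to 0.0962 FPKM in a gene of 1 kilobase. The mates of a pair appear to have been counted singly, because genes with 2 reads (1856 to 2141 per library) outnumbered genes with 1 read (1050 to 1201), so 2 reads often stand for 1 fragment and the floor covers counting error only. In medium, HLA-DMA was the highest per length with 0.413 ± 0.0123 FPKM (SD, n = 3), followed by CIITA with 0.0733 ± 0.0228 and CD74 with 0.0464 ± 0.0386. HLA-DMA stood above all other members in every medium library, while the ranges of CIITA and CD74 overlapped. The FPKM of CIITA was divided by 20757 bases, the summed exons of all its annotated transcripts, which lowers it against genes with short models such as HLA-DRB1 with 1229 bases.

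HTRA2, the targeted gene, a mitochondrial serine protease (ENSG00000115317), was lower in the knockdown. It had 1695, 1306 and 1587 reads under TNF-α and 805, 777 and 790 in the knockdown, a fall by 0.98 on the log2(FPKM + 0.1) scale (SE 0.087, limma adjusted p 2.8e-05). The knockdown replicate 2 library stood apart with 2.95% of its reads on mitochondrial genes against 3.69% to 4.68% in the other 11. Of 8 epithelial markers, EPCAM, CDH1, KRT8, KRT18 and KRT19 were expressed, whereas CDX2 had no reads and VIL1 and CDH17 at most 2 reads in any library, so these defining genes of intestinal epithelium were not detectable in most libraries.

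**Figure D1:**
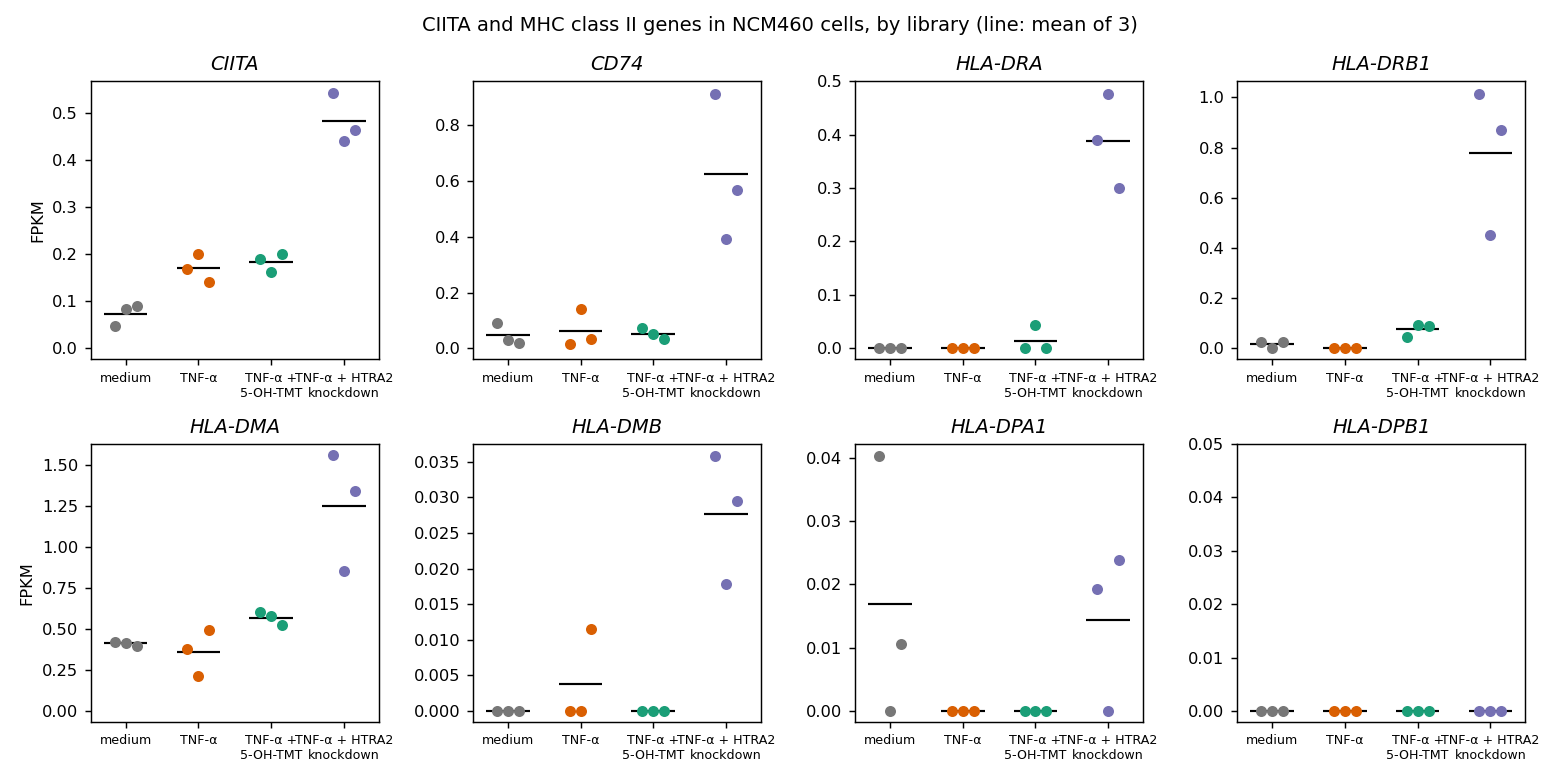
FPKM of each of the 8 genes (vertical axes, each with its own scale from 0) in the 12 libraries, by group; points are libraries and lines are group means. The 3 knockdown libraries lie above all others for CIITA, CD74, HLA-DRA, HLA-DRB1, HLA-DMA and HLA-DMB, while HLA-DPA1 stays at or under 0.0402 FPKM and HLA-DPB1 at 0.

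The first comparison, TNF-α against medium, asked what the cytokine itself did to the pathway. CIITA (ENSG00000179583; chr16:10866222-10943021) had 34, 55 and 61 reads in medium and 128, 129 and 109 with TNF-α. Every TNF-α library was above every medium library, with 0.169 ± 0.0293 FPKM against 0.0733 ± 0.0228 (SD, n = 3 each), a ratio of 2.31. The log2 fold change on the log2(FPKM + 0.1) scale, which understates changes of low genes, was 0.64 (SE 0.24), and the adjusted p from limma was 0.217. The exact two-sided permutation test gave p = 0.1, the smallest that 3 against 3 libraries can give.

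None of the other 7 members separated the TNF-α libraries from medium. HLA-DMA had 37, 34 and 33 reads in medium and 35, 17 and 47 with TNF-α (log2 fold change −0.20, SE 0.25, limma adjusted p 0.804). CD74 had 10, 3 and 2 reads in medium and 2, 14 and 4 with TNF-α (0.12, SE 0.39, adjusted p 0.935), and both genes overlapped between the groups. HLA-DRA (α chain of HLA-DR) had no reads in any of these 6 libraries, and HLA-DRB1 (its β chain) had at most 1 in medium and none with TNF-α.

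None of the 8 genes was called in this comparison by limma at an adjusted p under 0.05, while 3.22% of all genes tested were called higher. At an unadjusted p under 0.05 the count was 1, CIITA, beside 2673 of the 18079 genes tested. CIITA was also the 1 gene called when voom, limma's model for counts, was run on the recovered reads, with a log2 fold change of 1.23 and an adjusted p of 0.0079, and when the spread was not allowed to depend on the level (adjusted p 0.022). Without overlap and higher with TNF-α was 1 of the 8 genes, of which 3 were under the filter, against 11.1% of all genes tested.

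The second comparison, 5-OH-TMT added to TNF-α, asked whether the compound changed the response. CIITA had 138, 119 and 150 reads with 5-OH-TMT, and the groups overlapped. The log2 fold change was 0.078 with a 95% confidence interval from −0.45 to 0.61 (limma adjusted p 0.893). CD74 had 8, 6 and 4 reads and likewise overlapped with TNF-α (−0.031, SE 0.39, adjusted p 0.979).

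HLA-DMA and HLA-DRB1 lay higher in every 5-OH-TMT library than in any TNF-α library, but neither passed the adjusted threshold. HLA-DMA had 54, 52 and 48 reads, 0.570 ± 0.0402 FPKM against 0.363 ± 0.142 with TNF-α (SD, n = 3 each). Its log2 fold change was 0.58 (SE 0.25, limma adjusted p 0.231, exact permutation p = 0.1). HLA-DRB1 had 2, 4 and 4 reads where the TNF-α libraries had none, a difference near the floor (adjusted p 0.230). HLA-DRA was read 2 times in 1 of the 3 libraries.

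No member was called with 5-OH-TMT by limma or by voom. An unadjusted limma p under 0.05 was given by 2 (HLA-DMA and HLA-DRB1), beside 3632 of the 18079 genes tested. Over all genes tested, limma called 0.0387% in either direction, 7 genes in the fit of 4 groups, whereas voom called 236 and the fit of these 2 groups alone 911. The 2 genes whose 5-OH-TMT libraries all lay above TNF-α are 2 of 8, of which 3 were under the filter, beside 16.3% of all genes tested.

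The third comparison, HTRA2 knockdown under TNF-α against TNF-α, asked what differed in the knockdown libraries, and here the class II pathway was higher. CIITA and HLA-DMA, the 2 members that passed the filter on low values without the knockdown libraries, both rose at an adjusted p under 0.05, where 9.35% of all genes tested were called higher. CD74, HLA-DRA and HLA-DRB1 were also called higher, but they entered the test only through the knockdown libraries, so that a difference was built into their selection and their calls add nothing to that count. HLA-DMB, under the filter, was also above every TNF-α library, which makes 6 of 8 without overlap. Only CIITA and HLA-DMA among these can be set beside the 17.5% of all genes tested. In bulk RNA, more cells with class II transcripts and more transcripts per cell cannot be told apart.

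CIITA, the coactivator, had 406, 329 and 351 reads in the knockdown against 128, 129 and 109 with TNF-α. The lowest knockdown library thus had 329 reads where the highest of the other 9 libraries had 150. The mean rose from 0.169 ± 0.0293 to 0.482 ± 0.0536 FPKM (SD, n = 3 each), a ratio of 2.84 (log2 fold change 1.11, SE 0.24, limma adjusted p 0.0082). Part of CIITA, 2416 of its 20757 exon bases, overlaps DEXI on the other strand, and the library kit does not mark strand. DEXI was at 0.941 to 1.29 FPKM in all libraries, without a call in the knockdown (log2 fold change −0.15, adjusted p 0.491).

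The peptide-presenting chains of HLA-DR appeared almost only in the knockdown. HLA-DRA (ENSG00000204287; chr6:32439842-32445046) had 18, 22 and 14 reads there, no reads in the 3 TNF-α and 3 medium libraries, and 2 reads in 1 of the 5-OH-TMT libraries. Against the floor of 3 reads in each TNF-α library it was at least 5.78-fold higher (limma adjusted p 0.0014). HLA-DRB1 (ENSG00000196126; chr6:32578769-32589848) had 45, 20 and 39 reads against none, at least 11.1-fold higher (adjusted p 1.3e-04). The groups were far apart for both genes, although the knockdown counts themselves were small. Both genes entered the test only through the knockdown libraries, so their adjusted p carry the built-in difference described above. HLA-DR genes are polymorphic and HLA-DRB1 has close copies, so how its reads were shared with HLA-DRB5 is uncertain; HLA-DRB5 had 6, 2 and 6 reads in the knockdown and at most 2 with TNF-α.

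The chaperone and the peptide editor moved with them. CD74 (ENSG00000019582; chr5:150401637-150412929) had 105, 45 and 66 reads in the knockdown against 2, 14 and 4. Its mean went from 0.0640 ± 0.0673 to 0.625 ± 0.266 FPKM (SD, n = 3 each), a ratio of 9.77 (log2 fold change 2.16, SE 0.39, limma adjusted p 0.0029). The TNF-α mean rested largely on replicate 2, and without that library the ratio was 24.6. CD74 also entered the test only through the knockdown libraries, so its adjusted p carries the same built-in difference. HLA-DMA (ENSG00000204257; chr6:32948613-32969094) had 143, 78 and 124 reads against 35, 17 and 47, a ratio of 3.45 (1.56, SE 0.25, adjusted p 0.0013). HLA-DMB, its partner chain (ENSG00000242574), had only 6, 3 and 5 reads against 0, 0 and 2, and missed the threshold (adjusted p 0.0675 in the fit without the filter on low values). HLA-DMA shares 55 exon bases with BRD2 on the other strand, and BRD2 was not higher in the knockdown (−0.19, adjusted p 0.136).

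HLA-DP was the exception. HLA-DPA1, its α chain, had 4, 0 and 5 reads in the knockdown, none in the TNF-α and 5-OH-TMT libraries, and 8, 0 and 2 in medium, so that the knockdown overlapped with medium. HLA-DPB1, its β chain, had no reads in any of the 12 libraries. With 3 reads taken as the upper limit that a count of 0 allows, a low level of HLA-DPB1 was not detectable at this depth.

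The members did not enter the test alike. CIITA and HLA-DMA passed the filter on a mean of 0.1 FPKM also without the knockdown libraries. CD74, HLA-DRA and HLA-DRB1 passed only through them, and HLA-DPA1, HLA-DPB1 and HLA-DMB stayed under the filter. Knockdown replicate 2, the library with the low mitochondrial share, was the lowest of the knockdown libraries for CIITA, CD74, HLA-DRB1, HLA-DMA and HLA-DMB and the highest for HLA-DRA. Without it the 5 calls were still made.

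**Figure D2:**
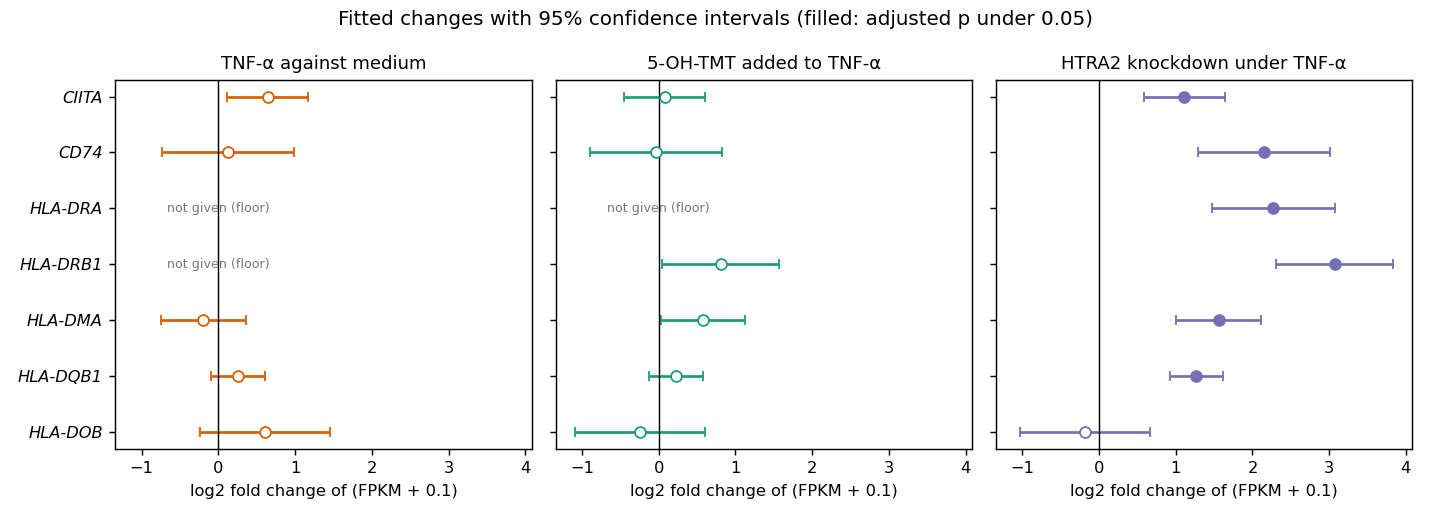
Log2 fold change on the log2(FPKM + 0.1) scale (horizontal axes) of 5 members, HLA-DQB1 and HLA-DOB in the 3 comparisons; points are fitted values, bars are 95% confidence intervals, and filled points have an adjusted p under 0.05. Filled points occur only in the knockdown, for all genes drawn but HLA-DOB. CD74, HLA-DRA and HLA-DRB1 entered the test only through the knockdown libraries, so a difference was built into their filled points. No value is drawn where both groups were at the floor of 3 reads.

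The knockdown and the 5-OH-TMT libraries were also compared with each other, since both groups received TNF-α. The same 5 genes were called higher in the knockdown, 3 of them with the built-in difference described, where 7.85% of all genes tested were called higher. HLA-DMB, with no reads in the 5-OH-TMT libraries, passed in the fit without the filter (adjusted p 0.0420), a fit in which HLA-DMA did not (0.059). CIITA differed by 1.03 on the log2(FPKM + 0.1) scale (SE 0.24, limma adjusted p 0.0158) and CD74 by 2.19 (SE 0.39, adjusted p 0.0040). HLA-DRB1 was 10.2 times as high in mean FPKM (adjusted p 0.0016), and HLA-DMA 2.20 times (adjusted p 0.0234). This comparison shares the knockdown libraries with the one against TNF-α, so it is not a separate observation of them. In the filtered fit the count was 3 without knockdown replicate 1 and 3 without 5-OH-TMT replicate 2, with CIITA and HLA-DMA not called in both cases. It was 4 without knockdown replicate 3, 5-OH-TMT replicate 1 or 5-OH-TMT replicate 3, with HLA-DMA not called.

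The order of the levels changed with the knockdown. There HLA-DMA was first with 1.25 ± 0.364 FPKM (SD, n = 3), then came HLA-DRB1 with 0.779 ± 0.293, CD74 with 0.625 ± 0.266, CIITA with 0.482 ± 0.0536 and HLA-DRA with 0.389 ± 0.0882. Each of these overlapped with the next in the order, whereas HLA-DRA was above HLA-DMB (0.0277 ± 0.00906) in every library. In TNF-α and in medium, CIITA was second behind HLA-DMA. The 7 genes other than CIITA summed to 0.356 to 0.543 FPKM under TNF-α, overlapping with the 0.447 to 0.576 of medium. The sum was 0.652 to 0.766 when 5-OH-TMT was added and 2.19 to 3.94 after the knockdown.

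**Figure D3:**
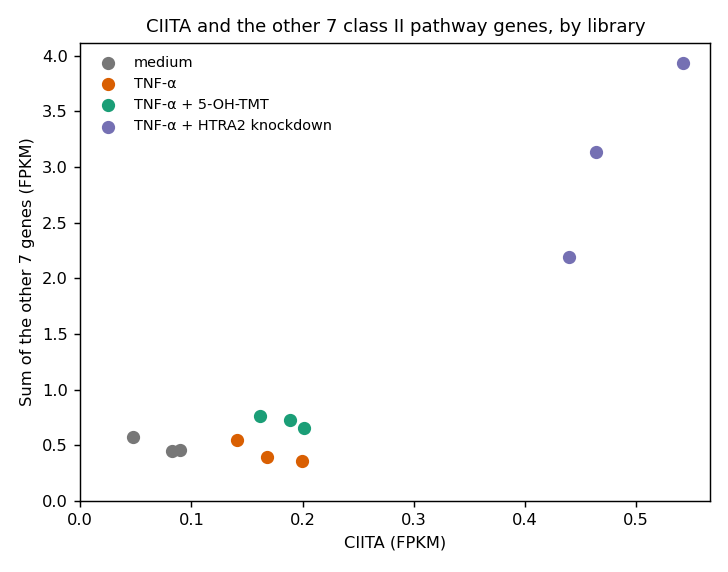
CIITA (horizontal axis, FPKM) against the summed FPKM of the other 7 genes (vertical axis) in the 12 libraries, coloured by group. TNF-α libraries lie to the right of medium at a similar height (0.356 to 0.543 against 0.447 to 0.576), and the 3 knockdown libraries lie to the upper right, at 2.19 to 3.94.

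Of the class II genes outside the 8, 7 were in the table and HLA-DQB1, the β chain of HLA-DQ, was the most expressed. It had 95, 138 and 112 reads in medium and 169, 114 and 164 under TNF-α. It had 187, 173 and 172 when 5-OH-TMT was added and 440, 349 and 391 after the knockdown. The knockdown libraries lay above all others, with 2.22 ± 0.258 FPKM against 0.861 ± 0.102 with TNF-α (log2 fold change 1.27, SE 0.16, limma adjusted p 2.6e-04). The 5-OH-TMT libraries, at 1.02 ± 0.0585 FPKM, lay above every TNF-α and medium library, without a call against TNF-α (0.22, SE 0.16, limma adjusted p 0.455). HLA-DQB1 shares 241 exon bases with the antisense gene HLA-DQB1-AS1, which had 9 to 41 reads in the knockdown and was not called there (adjusted p 0.413). HLA-DQA1, its α chain, had 15, 10 and 8 reads in the knockdown and 4, 1 and 6 with TNF-α (adjusted p 0.123 without the filter). In medium it had no reads, so that the TNF-α libraries lay above all medium libraries, with an adjusted p of 0.682 in the fit without the filter and 0.022 with voom. HLA-DOB, the β chain of HLA-DO, which restrains HLA-DM, had 17, 11 and 6 reads against 17, 12 and 10 (−0.18, SE 0.39, adjusted p 0.798). HLA-DQA2 and HLA-DQB2 had no reads and HLA-DOA at most 2 in a library.

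The factors that hold CIITA at the promoter gave no call for a rise in the knockdown. Of 7 genes for RFX, CREB and NF-Y subunits, none was called higher there and 1 was lower: RFXAP, an RFX subunit, fell from 1.45 ± 0.253 to 0.723 ± 0.197 FPKM (SD, n = 3 each; fell by 0.93 on the log2 scale, limma adjusted p 0.0283). That call was lost without TNF-α replicate 2 or 3 or knockdown replicate 2 or 3, with adjusted p of up to 0.101. RFX5, the DNA-binding RFX subunit, was called higher with TNF-α (0.62, SE 0.11, adjusted p 0.0054), at 5.75 ± 0.204 FPKM in medium and 8.99 ± 1.38 with TNF-α. It stood at 11.3 FPKM in the knockdown, where every library was above every TNF-α library (adjusted p 0.0571). RFXANK, the remaining RFX subunit, was lower in the knockdown than with 5-OH-TMT (19.1 against 23.5 FPKM, adjusted p 0.0426), a call lost without 5-OH-TMT or knockdown replicate 1 or 2, with an adjusted p of up to 0.150.

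The interferon-γ axis, the receptor, kinases and factors through which CIITA is usually induced, held genes that were higher with TNF-α and in the knockdown. IFNG itself had no reads in any of the 12 libraries. Of 12 tested genes, 6 rose with TNF-α and 8 in the knockdown, none fell, and none was called with 5-OH-TMT, beside 3.22%, 9.35% and 0.0387% of all genes tested. IRF1, which binds the inducible CIITA promoter, stood at 6.85 ± 0.431 FPKM in medium and 10.2 ± 0.414 under TNF-α (SD, n = 3 each; limma adjusted p 6.2e-04). It stood at 12.6 ± 0.217 when 5-OH-TMT was added, above every TNF-α library but without a call (0.31, SE 0.072, adjusted p 0.0946), and at 15.8 ± 1.11 after the knockdown. The step from TNF-α to the knockdown was 0.63 on the log2(FPKM + 0.1) scale (SE 0.072, adjusted p 1.5e-04).

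IFNGR1 and IFNGR2, the receptor chains, rose with TNF-α (ratios 1.62 and 1.94) and by a ratio of 1.70 each in the knockdown. IRF2, a factor of the same family as IRF1, and SOCS3, a feedback inhibitor, completed the 6 that rose with TNF-α, but the SOCS3 call was lost without medium replicate 1 or TNF-α replicate 2 or 3 (adjusted p up to 0.0736). The list also holds inhibitors: SOCS1, which blocks JAK signalling, rose in the knockdown (1.26 to 2.58 FPKM, limma adjusted p 0.0011), as did PRDM1, a repressor of CIITA in B cells (0.597 to 1.27 FPKM, adjusted p 0.0289, but 0.0562 to 0.0933 without any 1 of the 6 libraries). The median log2 fold change of the 12 genes was 0.48 under TNF-α, 0.033 when 5-OH-TMT was added and 0.61 after the knockdown, beside −0.0020, 0 and −0.0034 over all genes tested.

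Among 19 tested genes of antigen processing in the endosome, 9 rose in the knockdown, where 9.35% of all genes tested did, and none fell. CTSS, cathepsin S, which cuts the invariant chain, had 2, 4 and 4 reads in medium and 26, 18 and 31 under TNF-α. It had 22, 21 and 38 when 5-OH-TMT was added and 178, 156 and 111 after the knockdown. It rose by 1.99 from TNF-α to the knockdown (SE 0.27, limma adjusted p 4.2e-04) and was called with TNF-α at an adjusted p of 0.0399, a call lost under 11 of 15 alternatives. The other named cathepsins were CTSH (ratio 1.89), CTSF (1.82), CTSD (1.56), CTSL (1.51) and CTSB (1.44). With TNF-α, CD44, a surface partner of CD74, and CTSC completed the 3 genes called, where 3.22% of all genes tested were called higher. The CD44 call was lost without any 1 of the 6 libraries (adjusted p 0.0535 to 0.165), and that of CTSC without TNF-α replicate 2 (0.0587). The median log2 fold change of the list in the knockdown was 0.23.

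Co-stimulatory and co-inhibitory surface genes were higher as well, 6 of 9 in the knockdown beside 9.35% of all genes tested. VTCN1, a B7-family inhibitor, went from 0.575 ± 0.241 to 4.07 ± 0.516 FPKM (SD, n = 3 each; log2 fold change 2.69, SE 0.26, limma adjusted p 4.2e-05). ICAM1, an adhesion molecule for T cells, rose by a ratio of 3.52 to 49.4 FPKM, CD40 from 14.5 to 24.8, CD276 from 34.3 to 52.7, CD274 (PD-L1) from 2.37 to 3.60 and ICOSLG from 0.390 to 0.657. The ICOSLG call was lost without replicate 1 or 2 of either group (adjusted p up to 0.0925). VTCN1, CD274 and CD276 are known mainly as inhibitors of T cells. CD80 and CD86, the classical co-stimulators, were below the filter. With TNF-α, ICAM1, PDCD1LG2 and CD274 rose and TNFSF9 fell.

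As a list, MHC class I was expressed far above class II, with 359 to 404 FPKM summed in medium against 0.530 to 0.623 for the 8 genes. That did not hold for NLRC5 itself, and most of the tested list moved with TNF-α and in the knockdown. NLRC5, the class I counterpart of CIITA, was at 0.906 FPKM in medium, 0.892 under TNF-α, 1.06 when 5-OH-TMT was added and 1.49 after the knockdown (0.68, SE 0.11, limma adjusted p 0.0012 for the knockdown). B2M, the light chain of class I, stood at 81.4, 101, 102 and 162 FPKM in the same order. Of 10 tested class I genes, 7 rose with TNF-α and 9 in the knockdown, and none was called with 5-OH-TMT, beside 3.22%, 9.35% and 0.0387% of all genes tested.

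**Figure D4:**
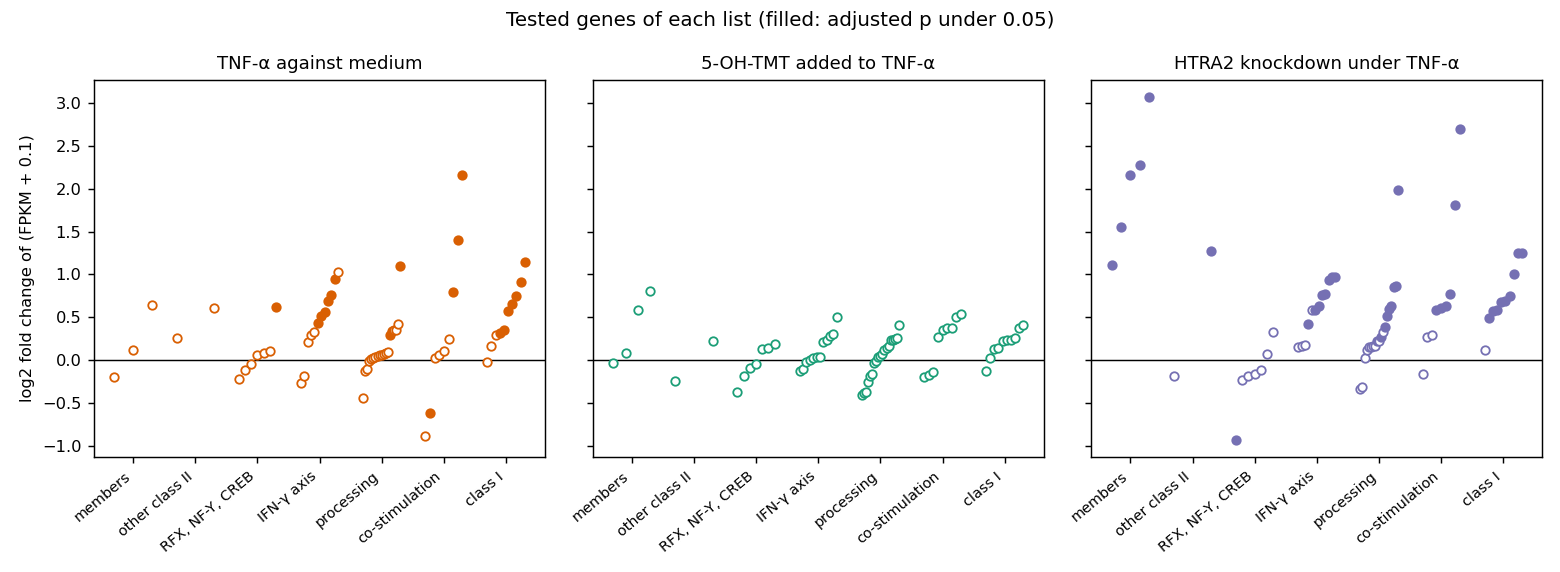
Log2 fold change on the log2(FPKM + 0.1) scale (vertical axis) of each tested gene in the 8 genes and 6 related lists, for the 3 comparisons; filled points have an adjusted p under 0.05, and genes at the floor in both groups are not drawn. In the knockdown the filled points lie above 0 in every list but the RFX, NF-Y and CREB factors, where 1 gene, RFXAP, lies below. Among the members, CD74, HLA-DRA and HLA-DRB1 entered the test only through the knockdown libraries.

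Genes that mark leukocytes, among them the antigen-presenting cells that use class II constitutively, were near 0 but not all flat. Of 9 such markers, CD3E and AIF1 had no reads in any library, and PTPRC (CD45) and MS4A1 (CD20) had at most 4. CSF1R and CD14 passed the filter on low values, and both were higher in the knockdown than with TNF-α (CSF1R 0.190 to 0.604 FPKM, limma adjusted p 0.0013; CD14 0.0946 to 0.443, adjusted p 0.0163). With TNF-α against medium, the median log2 fold change of these 2 genes was −0.94, and neither was called. ITGAX, under the filter, had 6, 10 and 13 reads in the knockdown against 2, 4 and 2 with TNF-α (adjusted p 0.227 in the fit without the filter). The summed level of the 9 was 0.291 to 0.402 FPKM with TNF-α, 0.903 to 1.48 in the knockdown, 0.665 to 0.735 with 5-OH-TMT and 0.657 to 1.11 in medium. The single tested fibroblast marker COL1A1 (1.17 to 2.89 FPKM) and the endothelial marker CDH5 (1.32 to 2.79 FPKM) also rose in the knockdown, with DCN at 0 throughout. Of 2 tested endothelial markers, 1 was called higher in the knockdown and 1 with TNF-α against medium, beside 9.35% and 3.22% of all genes tested. The summed fibroblast list was 1.02 to 1.12 FPKM in medium, at most 1.32 with TNF-α and 2.60 to 3.21 in the knockdown. The endothelial one was at 0.491 to 0.597, 1.42 to 1.57 and 2.21 to 3.62 in the same order. Of 5 tested epithelial markers, 2 were also called higher in the knockdown and none lower, where 9.35% of all genes tested were called higher. The part of these marker genes in the class II result was not tested.

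By Pearson correlation of log2(FPKM + 0.1) over the 12 libraries, which fall into 4 groups of 3, the genes most like CIITA among 11185 with a mean of at least 1 FPKM were RFTN1 (r = 0.992), TNFSF15 (0.989), EFNA1 (0.984), CXCL10 (0.982) and PLPP3 (0.980). Those most like CD74 included CCDC80 (0.966), GJA5 (0.951), TMEM62 (0.943) and CYB5R1 (0.940). The values are descriptions without a test, and the libraries share groups and depth.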

How the data were processed

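Poly(A) RNA of NCM460 cells was sequenced in 12 libraries, 3 for each of 4 groups taken from the labels. The submitters' processing notes list CASAVA 1.8, HISAT2 2.0.4, HTSeq 0.9.1 and hg38. The authors deposited FPKM per gene, and the gene coordinates matched GENCODE 29 for 99.9% of 58735 genes. FPKM times gene length, divided by the step of each library, gave whole reads (within 0.02) for 100% of values. Group means were estimated in limma 3.58.1 (R 4.3.3; eBayes with trend, 8 residual degrees of freedom) on log2(FPKM + 0.1) of 18079 genes with a mean of at least 0.1 FPKM over the 12 libraries, two-sided, with Benjamini-Hochberg adjustment over all of them. Genes under the filter came from the same fit of 31951 genes with an FPKM above 0. A gene was called at an adjusted p under 0.05. The fit was tested on simulated data with changes placed only in genes with more reads. That test does not cover genes as low as CD74, HLA-DRA and HLA-DRB1. Folds against groups with at most 3 reads per library are lower bounds.

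The 8 genes, the lists and the tests were chosen with earlier results of these data known. Named are the 8 genes, the other class II genes, NLRC5 and B2M, up to 6 genes called per pathway list and comparison (largest change first), marker genes, and the 5 genes most like CIITA and CD74, except a few that are not reported here. Genes overlapping the members were added after the values were seen. MARCH1 and MARCH8, written as dates in the table, were matched by identifier. Alternatives were voom on recovered reads, each library left out, a block for the replicate number, eBayes without trend, fits of 2 groups alone, quantile and median-of-ratios scaling, other filters, and pseudocounts of 1 and 0.01.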

Additional observations from a re-analysis of the deposited data

How the results depend on the processing

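Among the 5 members that passed the filter, the counts called were 5 in the knockdown against TNF-α and 0 with 5-OH-TMT under every alternative run. CD74, HLA-DRA and HLA-DRB1 entered the test only through the knockdown libraries, so for the knockdown only CIITA and HLA-DMA bear on this. None of the 8 genes could be tested at a mean of at least 1 FPKM. With TNF-α against medium the count of 0 became 1 with eBayes without trend and 1 with voom, CIITA in both; without single libraries it stayed at 0. For the knockdown against 5-OH-TMT it was between 3 and 5 without single libraries, and 3 without knockdown replicate 1 or 5-OH-TMT replicate 2. The cause of these changes was not tested.

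The direction turned only for genes that were not called. With TNF-α, the log2 fold change of CD74 was −0.13 under quantile normalization and −0.20 to 0.33 without single libraries (below 0 without medium replicate 3 or TNF-α replicate 2), that of HLA-DMA −0.40 to 0.058 (above 0 without TNF-α replicate 2) and that of HLA-DRB5 −0.10 to 0.37 (below 0 without medium replicate 2 or 3 or TNF-α replicate 2 or 3). With 5-OH-TMT, the ranges without single libraries were −3.0e-04 to 0.16 for CIITA (lowest without TNF-α replicate 3), −0.24 to 0.28 for CD74 (above 0 without TNF-α replicate 2 or 5-OH-TMT replicate 3), −0.0087 to 0.11 for HLA-DQA1 (lowest without TNF-α replicate 2) and −0.46 to 0.060 for HLA-DOB (highest without 5-OH-TMT replicate 2). CD74 was also 0.12 with a pseudocount of 0.01, 0.047 under quantile normalization and 0.18 with voom. HLA-DOB in the knockdown was −0.40 to 0.040 (highest without knockdown replicate 3), and against 5-OH-TMT it was −0.029 under quantile normalization and −0.25 to 0.28 without single libraries (below 0 without 5-OH-TMT replicate 2 or knockdown replicate 1).

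HLA-DMA lost its call in the knockdown against 5-OH-TMT in 6 of 15 alternatives. HLA-DMB, under the filter and outside these counts, passed in the knockdown against TNF-α with voom (adjusted p 0.0199) and without knockdown replicate 2 or TNF-α replicate 3 in the unfiltered fit (lowest 0.0075). Over all genes, 5-OH-TMT called 7 genes (6 of them higher) in the fit of 4 groups, 911 in the fit of 2 groups, 236 with voom, 127 at a mean of at least 1 FPKM, 8 with a pseudocount of 0.01, 4 (4 of them higher) under quantile normalization, 3 with a pseudocount of 1 and 1 with eBayes without trend. TNF-α called 742 and, in the fit of 2 groups, 392. The knockdown called 3152 genes against TNF-α, but 2015 without knockdown replicate 1 and 2062 without TNF-α replicate 2, and 2762 against 5-OH-TMT, but 1314 to 2706 without single libraries, lowest without 5-OH-TMT replicate 2.

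Same-numbered libraries did not deviate together (correlations of −0.104 to 0.0382 over 18 pairs, none over 0.1), so the numbers were not taken to pair samples. With the replicate number as a block, 0 members were called with TNF-α and 0 with 5-OH-TMT. In the knockdown 5 were called, 3 of them with the built-in difference described. The all-gene count with 5-OH-TMT went from 7 to 1. A library matched its own number best in 6 of 18 comparisons. Depth limited HLA-DMB and HLA-DPA1, which had few or no reads in every group. It also limited HLA-DRA and HLA-DRB1, which had few or none outside the knockdown and 14 to 45 per library in it.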
